A study of Mus musculus with 24 samples.

Results

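The 10 genes described here encode proteins of the Bcl2 family, which set the threshold for apoptosis through the mitochondria. They were taken by name from the deposited tables and make up 10 of the 18919 genes with read counts. All 10 were also in the authors' normalized table, and all 10 passed the filter on low counts, which kept 13294 genes. In the mitochondrial pathway, BH3-only proteins sense stress and bind either the pro-survival proteins or the effectors. The effectors Bax and Bak open the outer mitochondrial membrane once they are freed or activated, and cytochrome c then leaves the mitochondria and starts the caspases. The pro-survival proteins Mcl-1, Bcl-xL and Bcl-2 hold both kinds in check, and Mcl-1, whose protein turns over quickly, is needed by several myeloid cell types.

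Primary microglia, the resident macrophages of the brain, came from p0 mice. The mutant strain, B6.129S4-Cd14tm1Frm/J, lacks CD14, a co-receptor that passes lipopolysaccharide (LPS) to Toll-like receptor 4, and is called KO here. The wild type was C57BL/6 and is called WT. Cells of each genotype received 100 µg/ml of fibronectin (FN) of mouse, an adhesive protein of plasma and of the extracellular matrix, or 0.1 or 10 ng/ml of Re-LPS, a form of LPS with a short sugar chain, for 3 h, or stayed untreated. Each of the 8 groups had 3 libraries from independent cell preparations. Whether animals were pooled for a preparation is not given in the sources used here. The KO strain also carries 129 ancestry, so loss of CD14 and any 129 sequence near it cannot be told apart.

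Library totals ran between 14939019 and 22143774 reads in genes. Levels are reads per 1000000 counted reads (CPM), scaled by edgeR's TMM method, whose factors ran between 0.648 and 1.35. Cd14 stood at 2.14 to 6.37 CPM in the 12 KO libraries, against 338 to 5330 CPM in the 12 WT libraries. Of 10 microglial markers, 9 were in the count table, and they summed to 6540 to 9810 CPM per library. Astrocyte markers summed to 11.5 to 44.6 CPM and neuronal markers to 1.36 to 31.1 CPM, while the 4 listed markers of other leukocytes reached at most 0.583 CPM in sum. Oligodendrocyte lineage markers summed to 119 to 183 CPM in KO and 137 to 454 CPM in WT libraries. The 3 libraries richest in the ribosomal precursor Rn45s, replicate 2 of KO LPS 0.1 ng/ml, replicate 3 of WT LPS 0.1 ng/ml and replicate 3 of WT LPS 10 ng/ml, carried 3.62% to 8.21% of their reads there, against at most 0.784% in the others. The 8 libraries of replicate 1 stood apart in 94 genes, none of them a member. The vascular and fibroblast list summed to 19.7 to 31.4 CPM in KO cells under LPS 10 ng/ml, 10.8 to 30.7 CPM in WT cells under LPS 10 ng/ml and 11.5 to 24.7 CPM in WT cells under FN, and to at most 6.62 CPM in the other groups. Most of that sum was 1 of its genes, Pdgfrb, at 16.8 to 28.4 CPM over library totals in KO cells under LPS 10 ng/ml, against 0.0668 to 0.395 CPM in untreated KO cells. Pecam1, of the same list, was at 0.367 to 0.637 CPM in KO cells under LPS 10 ng/ml, against 1.0 to 2.27 CPM in untreated KO cells. Cdh5 was at 0.551 to 0.993 CPM in KO cells under LPS 10 ng/ml, against 0.134 to 0.7 CPM untreated. In WT cells Cdh5 was at 1.38 to 1.48 CPM under that dose, against 0.367 to 0.895 CPM untreated. Cldn5, Col1a1, Col1a2, Col3a1 and Dcn stayed at or below 0.647 CPM in every library. The part of these other cells in the results was not tested, and in bulk RNA fewer cells of a type and less RNA per cell cannot be told apart. TMM centres the bulk of genes on no change. Over library totals without it, the median of all genes stood at -0.50 on the log2 scale in KO cells and -0.80 in WT cells under LPS 10 ng/ml, and at -0.16 in KO cells and -0.78 in WT cells under FN, so each change given here is relative to the median gene.

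In WT cells, LPS 10 ng/ml and FN each moved 9 of the 10 genes relative to the median gene, and FN moved 3 of the 10 in KO cells. Genes counted as called when the Benjamini-Hochberg adjusted p of edgeR's quasi-likelihood test, over all tested genes, was below 0.05. In WT cells under LPS 10 ng/ml, 9 of the 10 were called, against 49.4% of all tested genes. Of these 6 rose, against 23.3% of all genes, and 3 fell, against 26.1%, and the median log2 change was 0.61 over the 10 genes and -0.01 over all. Over library totals the split turned, with 1 higher (10.9% of all genes) and 4 lower (55.7%). In WT cells under FN, 9 were called, against 50.2% of all genes. Of these 6 rose, against 23.7%, and 3 fell, against 26.5%, with a median of 0.62 over the 10 genes and 0.01 over all. Here too the split turned over library totals, with 1 higher (11.2% of all genes) and 4 lower (55.6%). Mcl1 was the gene that rose, and Bmf, Pmaip1, Bax and Bcl2 were those that fell, under both stimuli on that scale. Fitted with the replicate number as a block, all 10 were called in both comparisons, against 70.2% of all genes for LPS 10 ng/ml and 72% for FN. LPS 0.1 ng/ml in WT cells gave 2 called genes, against 15.6%, with 1 higher (9.94% of all genes) and 1 lower (5.66%), and the block called 7, against 41.5%. Over library totals there were 1 higher (6.96% of all genes) and 2 lower (12%).

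In KO cells under LPS 10 ng/ml, 6 of the 10 were called, against 42.9% of all genes, with 4 higher (21.2%) and 2 lower (21.6%), and the block called 9, against 66%. The split depended on the scaling, with 2 higher (11.3% of all genes) and 4 lower (42.3%) over library totals, 2 higher (15.5% of all genes) and 3 lower (28.8%) by upper quartile factors and 5 higher (22.5% of all genes) and 1 lower (20.3%) by RLE factors. In KO cells under FN, 3 were called, against 16.4%, with 2 higher (9.23%) and 1 lower (7.17%), and the block called 6, against 44%. In KO cells under LPS 0.1 ng/ml edgeR called 0 of the 10, against 0.73% of all genes. There 2 members had an unadjusted p below 0.05, against 577 of the 13294 tested genes. DESeq2 called 1 and limma 0, with shares of all genes not reported here, and the block called 2, against 3.87%.

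**Figure D1:**
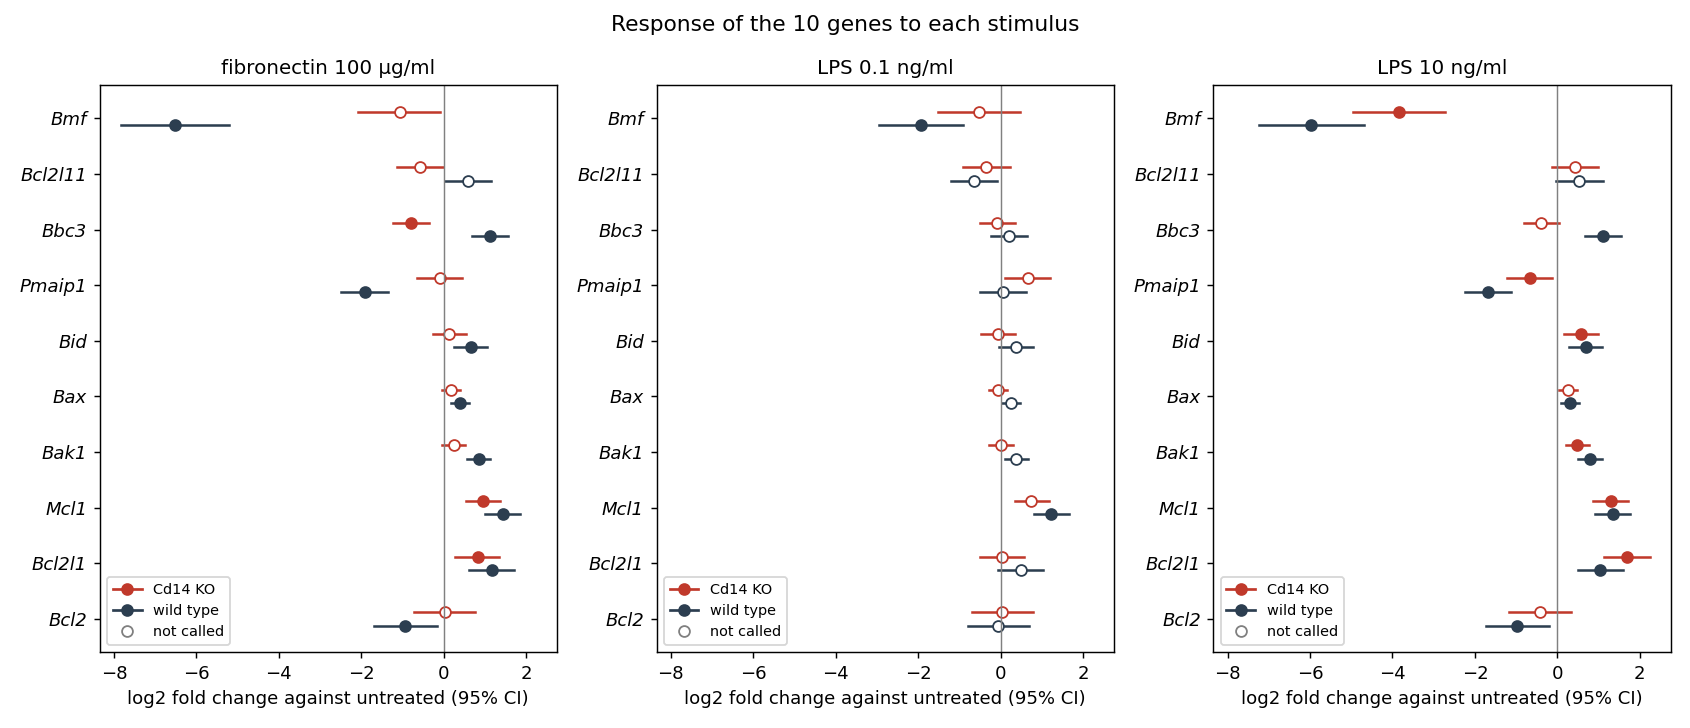
Log2 fold change of each of the 10 genes against untreated cells (x axis, points with 95% confidence intervals) under FN, LPS 0.1 ng/ml and LPS 10 ng/ml, with Cd14 KO and wild type side by side and called points filled. Bmf lies far to the left in WT cells under FN (-6.52) and LPS 10 ng/ml (-5.97), and Bbc3 under FN lies at -0.79 in KO and 1.13 in WT cells.

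Untreated cells carried the family at very unequal levels. Per kilobase of annotated exons, Mcl1 stood at 119 CPM per kb in KO and 122 CPM per kb in WT cells, the highest mean of the 10. Bax followed at 67.0 CPM per kb in KO and 65.0 CPM per kb in WT cells. Bcl2 was the lowest, at 2.61 CPM per kb in KO and 2.41 CPM per kb in WT cells. The other 7 genes lay between 6.55 and 27.6 CPM per kb. No member differed in a called way between untreated KO and WT cells, against 0.00752% of all tested genes called by edgeR and 0.143% with the block. No member had an unadjusted p below 0.05 there, against 130 of the 13294 tested genes, and DESeq2, limma and the block called 0 members. The 95% interval of the log2 difference, KO over WT, was -0.17 to 0.27 for Bax and -0.81 to 1.15 for Bmf. A difference within those bounds is not excluded.

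Bmf is a BH3-only gene. Its protein is known to be held at the cytoskeleton by dynein light chain 2 and released on loss of attachment. The gene had the largest fitted change of the 10 against untreated cells in every comparison except KO cells at LPS 0.1 ng/ml. There the changes of Mcl1 (0.75) and Pmaip1 (0.66) were larger. Bmf lies on the minus strand of chromosome 2 at 118528757 to 118549687 of GRCm38 (mm10), with 7 exon blocks. Positions of the other genes are on the same build. In KO cells Bmf was at 23.2, 39.8 and 20.2 CPM under FN, against 59.3, 71.4 and 44.7 CPM untreated. WT cells had 0.418, 0.583 and 0.673 CPM under FN, which is 6, 8 and 10 reads, against 50.1, 38.0 and 67.6 CPM untreated. No FN library overlapped the untreated libraries of its genotype, and all 3 WT libraries under FN were below 1 CPM. The log2 change under FN was -1.07 ± 0.47 (SE) in KO cells with adjusted p = 0.144, and adjusted p = 0.00341 with the block. The WT change was -6.52 ± 0.63, a fall of 91.8-fold, with adjusted p = 7.91e-08.

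Under LPS 10 ng/ml Bmf fell in both genotypes. In untreated cells, at 0.1 ng/ml and at 10 ng/ml it averaged 58.5 ± 13.4, 40.7 ± 6.2 and 4.07 ± 1.91 CPM in KO cells (SD, n = 3 each). The same series in WT cells ran 51.9 ± 14.9, 13.5 ± 12.9 and 0.822 ± 0.087 CPM. Among WT cells at 0.1 ng/ml the libraries were at 6.62, 5.57 and 28.4 CPM, and the third, which stood apart, is also among the 3 richest in Rn45s. At 10 ng/ml the log2 change was -3.84 ± 0.53 in KO cells (14.3-fold lower, adjusted p = 1.09e-05) and -5.97 ± 0.61 in WT cells (62.5-fold lower, adjusted p = 1.68e-07). At 0.1 ng/ml it was -0.52 ± 0.47 in KO cells (adjusted p = 1) and -1.94 ± 0.49 in WT cells (adjusted p = 0.00903). The WT call at 0.1 ng/ml was lost without WT LPS 0.1 ng/ml replicate 1 (-1.61) or 2 (-1.56). The step of 10 over 0.1 ng/ml was -3.31 ± 0.52 in KO cells and -4.03 ± 0.57 in WT cells, called in both. Ordered by mean level, untreated KO cells came first, then untreated WT cells, KO cells at LPS 0.1 ng/ml, KO cells under FN, WT cells at LPS 0.1 ng/ml, KO cells at LPS 10 ng/ml, WT cells at LPS 10 ng/ml and WT cells under FN. Of neighbours in that order, the untreated groups (adjusted p = 1) and WT cells under FN and LPS 10 ng/ml (-0.55 ± 0.62, adjusted p = 1) were tested and not called apart. KO and WT cells at LPS 10 ng/ml were tested and called apart, as given with the genotype differences below. The remaining neighbours were not compared directly.

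A promoter window each of Bmf, Bcl2l11 and Bbc3 is shown. These BH3-only genes differed between genotypes under FN, as did Bid and Pmaip1, which are not shown. FOXO3, whose own gene is described further on, is a known activator of Bcl2l11 and Bbc3. Each of the genes shown has further windows at other starts. For Bcl2l11 and Bbc3 the window with a FOXO match is the one printed. Each window holds the 250 bases before the first base of a RefSeq transcript (GRCm38.p6), 5′ to 3′ on the gene's strand, with any FOXO motif in capitals.
Bmf chr2:118549687-118549936, minus strand: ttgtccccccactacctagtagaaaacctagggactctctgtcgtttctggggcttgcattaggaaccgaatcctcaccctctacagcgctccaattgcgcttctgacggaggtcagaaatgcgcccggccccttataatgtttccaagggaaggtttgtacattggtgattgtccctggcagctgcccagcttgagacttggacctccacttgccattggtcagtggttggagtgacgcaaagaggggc
Bcl2l11 chr2:128125788-128126037, plus strand: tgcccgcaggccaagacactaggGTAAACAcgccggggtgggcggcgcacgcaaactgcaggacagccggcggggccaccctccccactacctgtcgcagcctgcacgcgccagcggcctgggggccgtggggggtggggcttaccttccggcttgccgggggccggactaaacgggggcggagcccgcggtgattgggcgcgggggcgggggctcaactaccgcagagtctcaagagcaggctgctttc
Bbc3 chr7:16310011-16310260, plus strand: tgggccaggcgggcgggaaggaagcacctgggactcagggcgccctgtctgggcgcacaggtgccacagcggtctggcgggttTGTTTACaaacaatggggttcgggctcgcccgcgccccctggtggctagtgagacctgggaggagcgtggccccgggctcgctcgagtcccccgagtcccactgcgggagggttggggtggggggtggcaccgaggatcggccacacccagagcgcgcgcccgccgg
The windows of the 9 members other than Pmaip1 were searched on both strands for the FOXO motif TGTTTAC, the kappaB motif (GGGA, a pair of any bases, TTCC), the interferon element (GAAA, a pair of any bases, GAAA) and the cyclic AMP element TGACGTCA. The FOXO motif matched in the Bcl2l11 window shown, on the opposite strand at position -227 from the first base, and in the Bbc3 window shown, at position -167. The other windows searched, those at other starts of Bcl2l11 and Bbc3 among them, held none of the 4 motifs. Of 27025 genes with a window, 3.54% held the FOXO motif, 1.36% the kappaB motif, 3.46% the interferon element and 1.77% the cyclic AMP element. These are matches of letters only.

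Bcl2l11 (chromosome 2, 128126038 to 128162547, plus strand) encodes Bim, a BH3-only protein that binds all pro-survival members and is known for its rise when growth factors are withdrawn. Under FN it was at 100, 96.3 and 165 CPM in KO cells and 254, 181 and 244 CPM in WT cells. Untreated, it was at 144, 181 and 214 CPM in KO cells and 145, 138 and 170 CPM in WT cells. The WT libraries under FN all lay above the untreated WT libraries, while the KO groups overlapped. The log2 change under FN was -0.57 ± 0.27 in KO cells (adjusted p = 0.177) and 0.58 ± 0.27 in WT cells (adjusted p = 0.0822). The block called both, with adjusted p = 0.000875 in KO and adjusted p = 0.000587 in WT cells, and over library totals the WT value was -0.22. From untreated through 0.1 to 10 ng/ml of LPS the means were 180 ± 35.0, 141 ± 41.3 and 240 ± 63.2 CPM in KO cells and 151 ± 16.9, 96.4 ± 19.5 and 218 ± 64.4 CPM in WT cells. Neither dose was called against untreated cells in either genotype. With the block, WT cells were called at both doses, with -0.66 at 0.1 ng/ml (adjusted p = 0.000493) and 0.50 at 10 ng/ml (adjusted p = 0.00186), and KO cells at 10 ng/ml (0.41, adjusted p = 0.0087). The WT value at 10 ng/ml was also called without WT LPS 10 ng/ml replicate 2 (0.74), and over library totals it was -0.28. The step of 10 over 0.1 ng/ml was a rise of 0.77 ± 0.27 in KO cells (adjusted p = 0.0323) and 1.18 ± 0.27 in WT cells (adjusted p = 0.0026). The KO step lost its call without KO LPS 0.1 ng/ml replicate 1 (0.60) or 2 (0.72) or KO LPS 10 ng/ml replicate 3 (0.53).

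Bbc3 (chromosome 7, 16308393 to 16318205, plus strand), the gene of the p53-induced BH3-only protein Puma, moved in opposite directions in KO and WT cells under FN. In KO cells it was at 12.6, 11.5 and 10.2 CPM under FN, against 21.8, 22.8 and 14.9 CPM untreated. WT cells had 45.4, 32.7 and 38.8 CPM under FN, against 16.8, 17.6 and 19.1 CPM untreated. Every KO library under FN was below every untreated KO library, and every WT library under FN was above every untreated WT library. The log2 change was -0.79 ± 0.21 in KO cells (adjusted p = 0.0116) and 1.13 ± 0.21 in WT cells (adjusted p = 0.000155). The KO call was lost without KO FN replicate 3 (-0.72) or KO untreated replicate 2 (-0.68). LPS 10 ng/ml gave 19.5, 12.3 and 13.6 CPM in KO cells and 43.6, 40.9 and 30.9 CPM in WT cells. That was -0.39 ± 0.21 in KO cells (adjusted p = 0.141, and adjusted p = 0.0306 with the block) and a rise of 1.11 ± 0.21 in WT cells (adjusted p = 0.000187). The KO value was also called without KO LPS 10 ng/ml replicate 1 (-0.62) or KO untreated replicate 3 (-0.56). Over library totals the WT values were 0.31 under LPS 10 ng/ml and 0.32 under FN, neither called, and the KO value under LPS 10 ng/ml was called at -0.91. LPS 0.1 ng/ml gave -0.08 ± 0.20 in KO and 0.21 ± 0.21 in WT cells, neither called.

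Pmaip1 encodes Noxa, a BH3-only protein that binds chiefly Mcl-1. In KO cells it was at 31.1, 33.2 and 30.4 CPM under FN, against 32.4, 33.7 and 35.1 CPM untreated. In WT cells it was at 7.18, 8.31 and 9.09 CPM under FN, against 27.2, 24.5 and 41.5 CPM untreated. The KO groups overlapped and the WT groups did not. The log2 change was -0.10 ± 0.26 in KO cells (adjusted p = 0.952, 95% interval -0.64 to 0.45) and -1.92 ± 0.27 in WT cells, a fall of 3.79-fold (adjusted p = 8.67e-06). Under LPS 10 ng/ml it was at 14.9, 22.0 and 26.6 CPM in KO cells and 8.84, 10.2 and 9.92 CPM in WT cells, below every untreated library of the same genotype. The log2 change was -0.67 ± 0.26 in KO cells (adjusted p = 0.0459) and -1.69 ± 0.27 in WT cells (adjusted p = 3.6e-05). The KO call was lost without KO LPS 10 ng/ml replicate 1 (-0.47) or 2 (-0.70) or KO untreated replicate 1 (-0.70), 2 (-0.67) or 3 (-0.64). At 0.1 ng/ml Pmaip1 was at 50.7, 61.6 and 47.3 CPM in KO cells, above all untreated KO libraries, and at 23.6, 22.7 and 50.9 CPM in WT cells. That was 0.66 ± 0.26 in KO cells (adjusted p = 0.734, and adjusted p = 0.0425 with the block) and 0.06 ± 0.26 in WT cells (adjusted p = 0.991).

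Bid (chromosome 6, 120891930 to 120916853, minus strand) encodes the BH3-only protein that links caspase-8 to the mitochondria. Under LPS 10 ng/ml it was at 32.4, 27.5 and 44.5 CPM in KO cells, against 25.8, 19.5 and 24.5 CPM untreated. WT libraries were at 43.0, 36.1 and 39.8 CPM under LPS 10 ng/ml, against 24.8, 26.7 and 22.4 CPM untreated. No LPS library overlapped the untreated libraries of its genotype. It rose by 0.58 ± 0.19 in KO cells (adjusted p = 0.0205) and by 0.69 ± 0.19 in WT cells (adjusted p = 0.00605), although over library totals the values were 0.10 in KO and -0.12 in WT cells, neither called. The KO call was lost without KO LPS 10 ng/ml replicate 3 (0.36) or KO untreated replicate 2 (0.47). Under FN, Bid was at 0.14 ± 0.19 in KO cells (adjusted p = 0.785) and rose by 0.66 ± 0.19 in WT cells (adjusted p = 0.00812), where the value over library totals was -0.14. Exons of Bid share 628 of 3550 bases with Bcl2l13 on the other strand, and whether the counting used strand is not given in the sources used here, so reads in that stretch are uncertain.

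**Figure D2:**
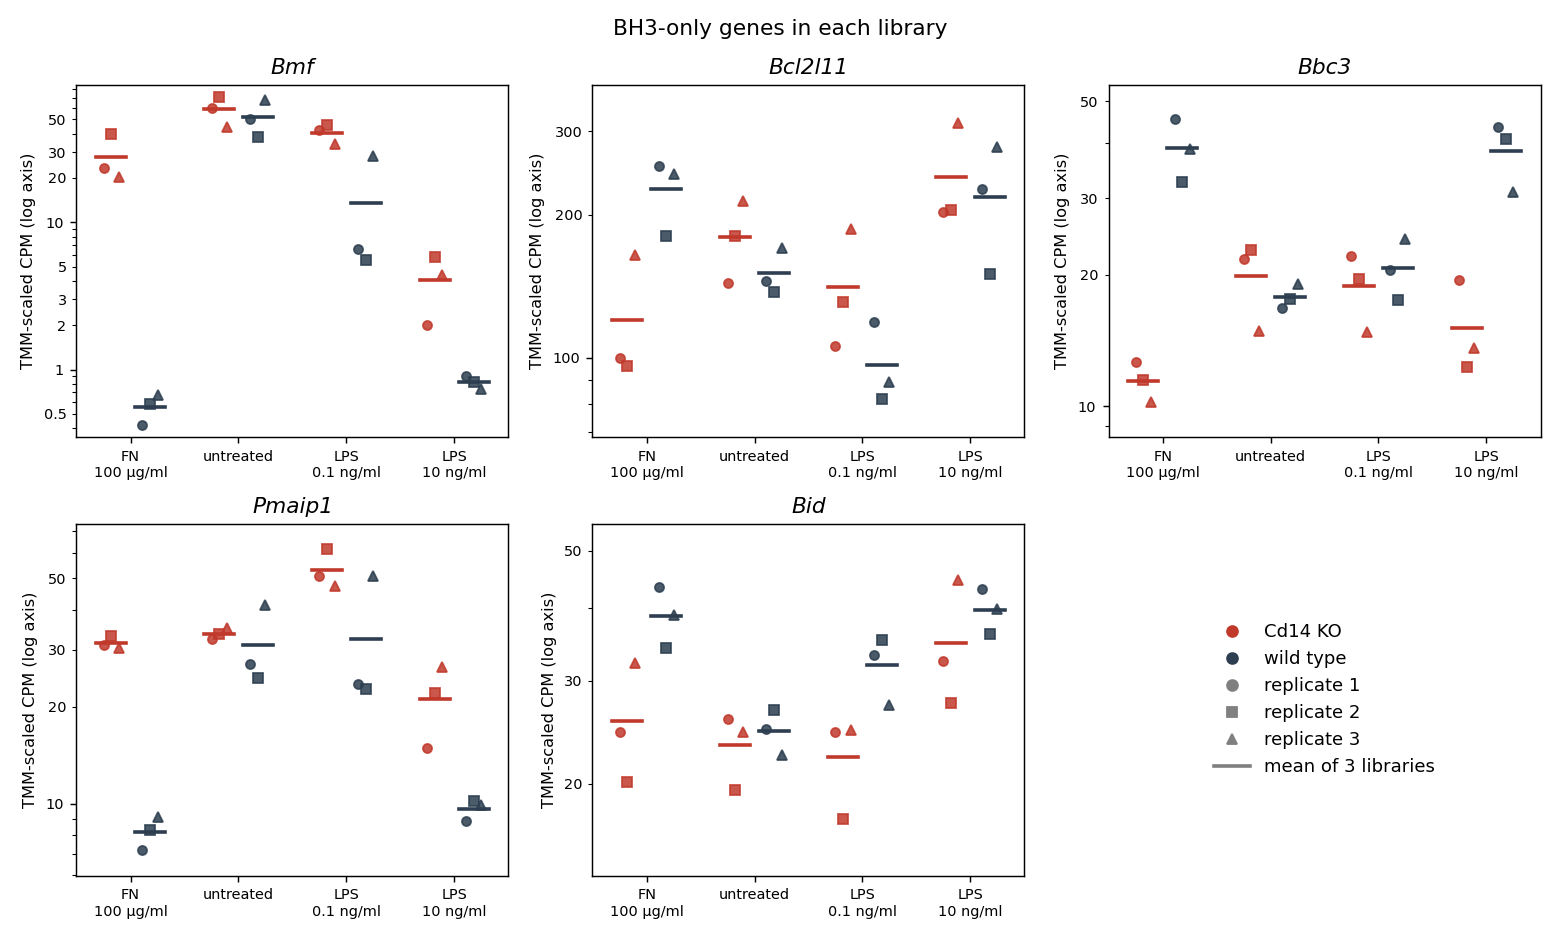
TMM-scaled CPM (log y axis) of the 5 BH3-only genes in all 24 libraries, under FN, untreated, LPS 0.1 ng/ml and LPS 10 ng/ml, with Cd14 KO left of wild type and a bar at the mean of 3 libraries. WT points for Bmf and Pmaip1 are lowest under FN and LPS 10 ng/ml, and the KO points for Pmaip1 under FN lie beside the untreated ones.

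The effector genes Bax (chromosome 7, 45461697 to 45466898, minus strand) and Bak1 (chromosome 17, 27019810 to 27029009, minus strand) encode the proteins that form the pores in the outer mitochondrial membrane. Bax was at 115 to 132 CPM under LPS 10 ng/ml in KO cells, against 101 to 112 CPM untreated, and at 113 to 134 CPM in WT cells, against 92.2 to 108 CPM untreated. The libraries did not overlap in either genotype. The log2 change was 0.25 ± 0.10 in KO cells (adjusted p = 0.0653, and adjusted p = 0.0132 with the block) and a rise of 0.30 ± 0.10 in WT cells (adjusted p = 0.0242), and over library totals these values turned to -0.25 in KO and -0.50 in WT cells. The WT call was lost without WT LPS 10 ng/ml replicate 1 (0.27) or 2 (0.25) or WT untreated replicate 3 (0.23), and the KO value was called without KO LPS 10 ng/ml replicate 2 (0.31). Under FN it was 0.17 ± 0.10 in KO cells (adjusted p = 0.335) and 0.40 ± 0.10 in WT cells (adjusted p = 0.00374), where the value over library totals was -0.39.

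Bak1 was at 100, 82.5 and 95.5 CPM under LPS 10 ng/ml in KO cells, against 77.6, 63.4 and 58.2 CPM untreated. WT libraries were at 128, 116 and 102 CPM under LPS 10 ng/ml, against 67.3, 75.0 and 56.5 CPM untreated. No library overlapped between these pairs of groups. The rise was 0.48 ± 0.13 in KO cells (adjusted p = 0.00701) and 0.80 ± 0.14 in WT cells (adjusted p = 6.7e-05), while over library totals the values were -0.01 in KO and 0.00 in WT cells. Under FN, Bak1 was at 0.24 ± 0.13 in KO cells (adjusted p = 0.284, and adjusted p = 0.0272 with the block) and rose by 0.85 ± 0.14 in WT cells (adjusted p = 3.43e-05, 0.06 over library totals). At 0.1 ng/ml the WT value of 0.38 ± 0.13 (adjusted p = 0.0647) was called without WT untreated replicate 2 (0.48). Bak1 shares 614 of its 2407 exon bases with Ggnbp1 on the other strand, and Bax shares 192 of 1576 with Gm45808 on the same strand, so those reads are uncertain too.

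Mcl1 (chromosome 3, 95658788 to 95663176, plus strand), the pro-survival gene with the highest level among the 10 in untreated cells, rose under every stimulus in WT cells. Under FN it was at 900, 598 and 864 CPM in KO cells and 1360, 1100 and 920 CPM in WT cells. Untreated, it was at 417, 338 and 469 CPM in KO cells and 445, 416 and 387 CPM in WT cells. All stimulated libraries of both genotypes lay above all untreated libraries. FN raised it by 0.95 ± 0.20 in KO cells (adjusted p = 0.00242) and 1.44 ± 0.20 in WT cells (adjusted p = 7.86e-06). LPS 10 ng/ml raised it by 1.29 ± 0.20 in KO cells (adjusted p = 4.04e-05) and 1.35 ± 0.20 in WT cells (adjusted p = 1.67e-05), and over library totals the rises were 0.79 in KO and 0.55 in WT cells. At 0.1 ng/ml the log2 change was 0.75 ± 0.20 in KO cells (adjusted p = 0.118, and adjusted p = 1.14e-05 with the block) and 1.22 ± 0.20 in WT cells (adjusted p = 0.000244). From untreated through 0.1 to 10 ng/ml the means were 408 ± 66.0, 687 ± 82.2 and 995 ± 159 CPM in KO cells and 416 ± 29.3, 972 ± 198 and 1060 ± 169 CPM in WT cells. The step of 10 over 0.1 ng/ml was 0.53 ± 0.20 in KO cells (adjusted p = 0.0416) and 0.12 ± 0.20 in WT cells (adjusted p = 0.754), and over library totals 0.11 in KO and -0.43 in WT cells. The KO step lost its call without KO LPS 0.1 ng/ml replicate 1 (0.56) or 2 (0.44) or KO LPS 10 ng/ml replicate 1 (0.41) or 3 (0.54).

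Bcl2l1 (chromosome 2, 152780668 to 152831728, minus strand), which encodes Bcl-xL, had the largest fitted rise of the 10 genes in KO cells under LPS 10 ng/ml. In KO cells it was at 321, 296 and 334 CPM under that dose, against 126, 65.8 and 104 CPM untreated. WT cells had 241, 220 and 206 CPM, against 116, 134 and 74.3 CPM untreated. The LPS libraries of KO cells lay above those of WT cells as well as above all untreated libraries. The rise was 1.69 ± 0.26 in KO cells (3.22-fold, adjusted p = 3.6e-05) and 1.04 ± 0.26 in WT cells (2.06-fold, adjusted p = 0.00219). Over library totals it was 1.21 in KO cells and 0.25, not called, in WT cells. FN gave 196, 150 and 174 CPM in KO cells and 245, 246 and 234 CPM in WT cells. That was a rise of 0.82 ± 0.26 in KO cells (adjusted p = 0.0349) and 1.16 ± 0.26 in WT cells (adjusted p = 0.000891, 0.38 over library totals). The KO call under FN was lost without KO FN replicate 1 (0.72) or 3 (0.81) or KO untreated replicate 2 (0.59) or 3 (0.86). At 0.1 ng/ml Bcl2l1 was at 0.04 ± 0.25 in KO cells and 0.49 ± 0.25 in WT cells, neither called, and the block called the WT value with adjusted p = 0.0239.

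Bcl2 (chromosome 1, 106538178 to 106714274, minus strand), the founding member of the family, fell in WT cells under FN and LPS 10 ng/ml relative to the median gene. Under FN it was at 26.6, 19.7 and 26.3 CPM in KO cells and 10.8, 14.9 and 9.16 CPM in WT cells. Under LPS 10 ng/ml it was at 23.1, 13.8 and 16.1 CPM in KO cells and 10.3, 15.1 and 8.45 CPM in WT cells. Untreated, it was at 28.0, 11.7 and 31.9 CPM in KO cells and 26.8, 24.7 and 14.8 CPM in WT cells. Replicate 2 was the lowest untreated KO library and replicate 3 the lowest untreated WT library, and that WT library lay within the range of the stimulated ones. FN gave 0.02 ± 0.36 in KO cells (adjusted p = 1) and -0.93 ± 0.36 in WT cells (adjusted p = 0.0398). LPS 10 ng/ml gave -0.43 ± 0.36 in KO cells (adjusted p = 0.379) and -0.97 ± 0.36 in WT cells (adjusted p = 0.0331). Over library totals Bcl2 fell in both genotypes under LPS 10 ng/ml, at -0.92 in KO and -1.74 in WT cells, and under FN it was at -0.10, not called, in KO and -1.69, called, in WT cells. The WT call under FN was lost without WT FN replicate 1 (-0.88) or 3 (-0.78) or WT untreated replicate 1 (-0.77) or 2 (-0.84). That under LPS 10 ng/ml was lost without WT LPS 10 ng/ml replicate 1 (-0.91) or 3 (-0.80) or WT untreated replicate 1 (-0.81) or 2 (-0.88). An antisense gene, D630008O14Rik, shares 558 of the 9157 exon bases of Bcl2.

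**Figure D3:**
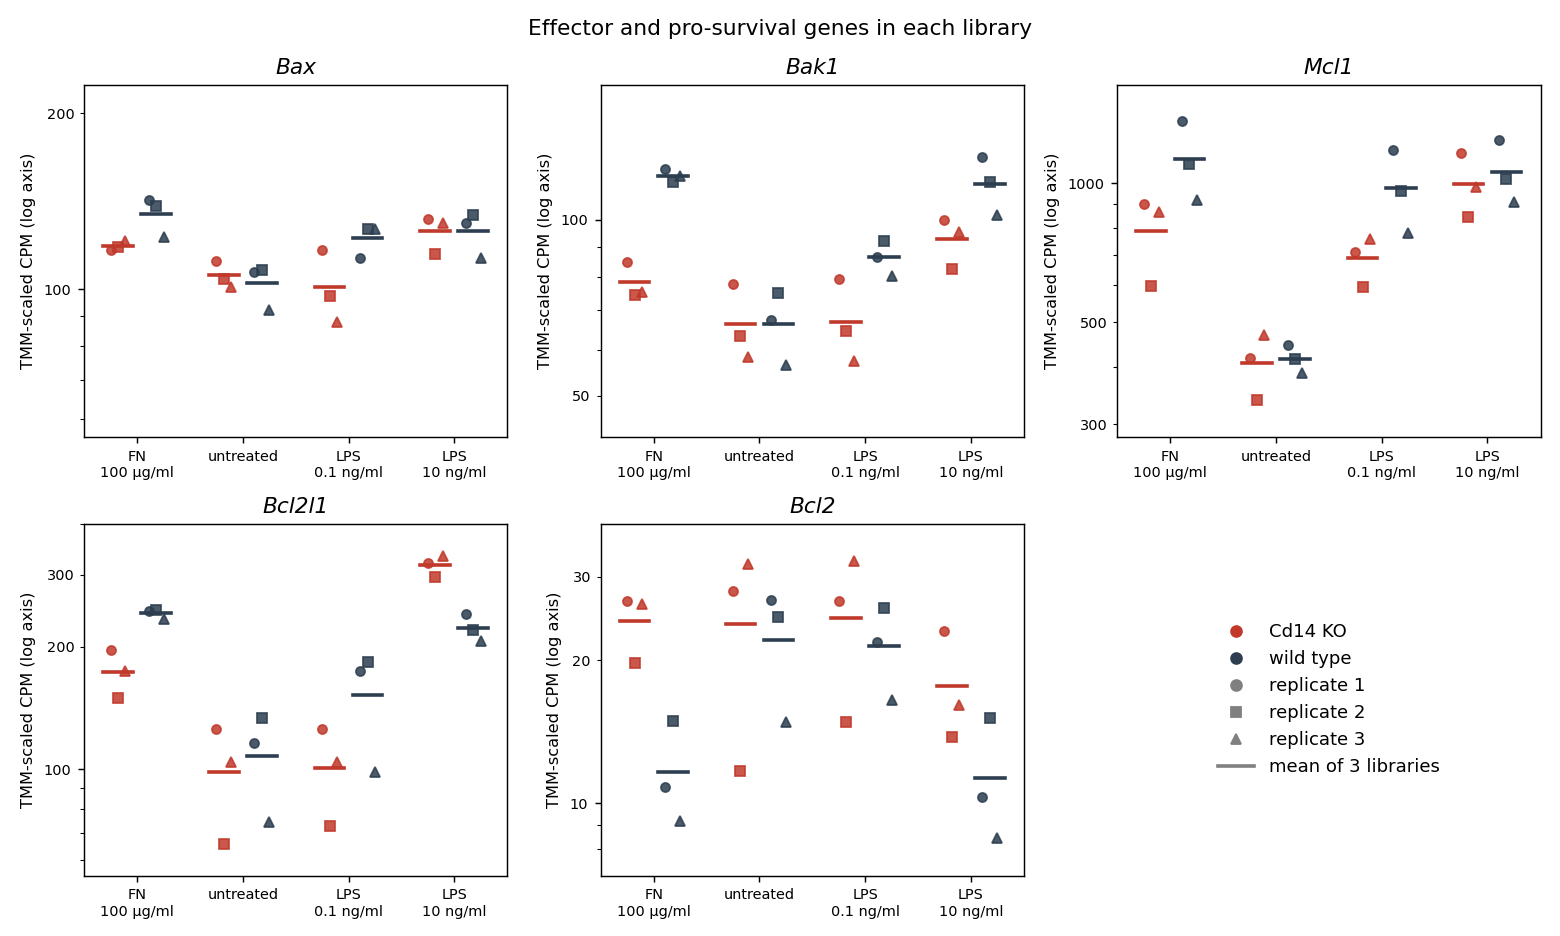
TMM-scaled CPM (log y axis) of the 2 effector and 3 pro-survival genes in all 24 libraries, under FN, untreated, LPS 0.1 ng/ml and LPS 10 ng/ml, with Cd14 KO left of wild type and a bar at the mean of 3 libraries. Mcl1 lies above untreated cells under every stimulus, and Bcl2l1 has its highest mean in KO cells under LPS 10 ng/ml.

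Between genotypes, more members were called under FN than under either dose of LPS, except over library totals, where FN and LPS 10 ng/ml gave 5 each. Under FN 8 of the 10 genes were called, against 38.6% of all tested genes. Of these 3 were higher in KO than in WT cells, against 21% of all genes, and 5 were lower, against 17.6%, and the block also called 8, against 50.1%. Over library totals there were 4 higher (51.4% of all genes) and 1 lower (8.4%). Bmf was higher in KO cells by 5.62 ± 0.61 (49.1-fold, adjusted p = 8e-07), Pmaip1 by 1.94 ± 0.27 (adjusted p = 1.44e-05) and Bcl2 by 1.06 ± 0.36 (adjusted p = 0.0267). The difference was -1.77 ± 0.21 for Bbc3 (3.41-fold lower, adjusted p = 2.41e-06) and -0.91 ± 0.27 for Bcl2l11 (adjusted p = 0.0121). Bid (-0.60 ± 0.19), Bak1 (-0.61 ± 0.13) and Mcl1 (-0.52 ± 0.20) were also lower, but over library totals they came to 0.06, 0.05 and 0.14, and Bcl2l11 to -0.24, none of them called. Bax (-0.18 ± 0.10, adjusted p = 0.194) and Bcl2l1 (-0.48 ± 0.25, adjusted p = 0.154) were not called, although Bax was called at 0.48 over library totals. The call of Bcl2l11 was lost without KO FN replicate 1 (-0.79) or 2 (-0.77). Bid lost its call without KO FN replicate 1 (-0.57) or 2 (-0.45) or WT FN replicate 1 (-0.51). Mcl1 lost its call without KO FN replicate 2 (-0.35) or 3 (-0.59) or WT FN replicate 1 (-0.36) or 2 (-0.53). Bcl2 lost its call without KO FN replicate 1 (0.98) or 3 (0.99) or WT FN replicate 1 (1.01) or 3 (0.91).

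Under LPS 10 ng/ml, 3 of the 10 genes were called between genotypes, against 15.9% of all genes, with 2 higher in KO cells (8.05% of all genes) and 1 lower (7.85%). Over library totals there were 4 higher (25.9% of all genes) and 1 lower (4.88%). These were Bmf (2.30 ± 0.56, adjusted p = 0.00738), Pmaip1 (1.13 ± 0.27, adjusted p = 0.00623) and Bbc3 (-1.35 ± 0.21, adjusted p = 0.000199). The block called 4, against 25.1%, adding Bak1 at -0.31 (adjusted p = 0.0371), which was 0.00 over library totals. Mcl1 differed by -0.09 ± 0.20, with a 95% interval of -0.50 to 0.33. Bcl2l1 at 0.51 ± 0.25 and Bcl2 at 0.64 ± 0.36 were called over library totals alone, at 0.83 and 0.93. Under LPS 0.1 ng/ml 1 of the 10, Bmf, was called (1.59 ± 0.48, adjusted p = 0.0449), against 9.3% of all genes, 2.97% higher and 6.33% lower, and the block called 6, against 18.9%. The Bmf call was lost without KO LPS 0.1 ng/ml replicate 1 (1.56), 2 (1.49) or 3 (1.70) or WT LPS 0.1 ng/ml replicate 1 (1.26) or 2 (1.23). Without WT replicate 3 of that dose, which stood apart, Pmaip1 (1.20) and Bcl2l1 (-0.82) were called. Without KO replicate 1 of that dose, Bax (-0.40) and Bak1 (-0.50) were called.

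Whether a stimulus acted differently in the genotypes was tested by the interaction, the log2 response of KO cells less the log2 response of WT cells. For FN it was called in 5 of the 10 genes, against 23.1% of all genes, with 2 positive (11.8%) and 3 negative (11.3%), and in 8 with the block, against 49.3%. It was 5.45 ± 0.75 for Bmf (adjusted p = 3.46e-05), 1.83 ± 0.37 for Pmaip1 (adjusted p = 0.00136), -1.92 ± 0.29 for Bbc3 (adjusted p = 9.11e-05), -1.16 ± 0.38 for Bcl2l11 (adjusted p = 0.0341) and -0.61 ± 0.19 for Bak1 (adjusted p = 0.0251). Over library totals Bak1 came to 0.03 and Bcl2l11 to -0.51, neither called. The block also called Bid (-0.54), Mcl1 (-0.48) and Bcl2 (1.03), but over library totals Bid turned to 0.13 and Mcl1 to 0.16, neither called, and Bcl2 was called at 1.59. The split of the interaction was 3 higher (37.6% of all genes) and 1 lower (6.08%) over library totals and 2 higher (14.8% of all genes) and 1 lower (9.11%) by upper quartile factors. The call of Bcl2l11 was lost without KO FN replicate 1 (-1.04) or 2 (-1.02), KO untreated replicate 2 (-1.15) or 3 (-1.01), WT FN replicate 1 (-1.07) or 3 (-1.10) or WT untreated replicate 1 (-1.13) or 2 (-1.09). That of Bak1 was lost without KO FN replicate 2 (-0.58) or 3 (-0.59), KO untreated replicate 1 (-0.48), WT FN replicate 1 (-0.59) or WT untreated replicate 3 (-0.51).

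For LPS 10 ng/ml the interaction was called in 1 gene, Bbc3 (-1.50 ± 0.29, adjusted p = 0.00482), against 5.28% of all genes, 1.96% positive and 3.32% negative. The block added Bmf (2.16, adjusted p = 0.034), Pmaip1 (0.96, adjusted p = 0.02) and Bcl2l1 (0.66, adjusted p = 0.0482), for 4 called, against 21.7%, and Bmf was also called without KO LPS 10 ng/ml replicate 1 (2.45). For LPS 0.1 ng/ml edgeR called 0 of the 10, against 2.29% of all genes. There 2 members had an unadjusted p below 0.05, against 1359 of the 13294 tested genes. DESeq2 and limma called 0, and the block called Bmf (1.65), Bak1 (-0.37) and Mcl1 (-0.45), against 13.4%. Bmf was called without WT LPS 0.1 ng/ml replicate 3 (2.57), and Pmaip1 was called without WT LPS 0.1 ng/ml replicate 3 (1.08).

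**Figure D4:**
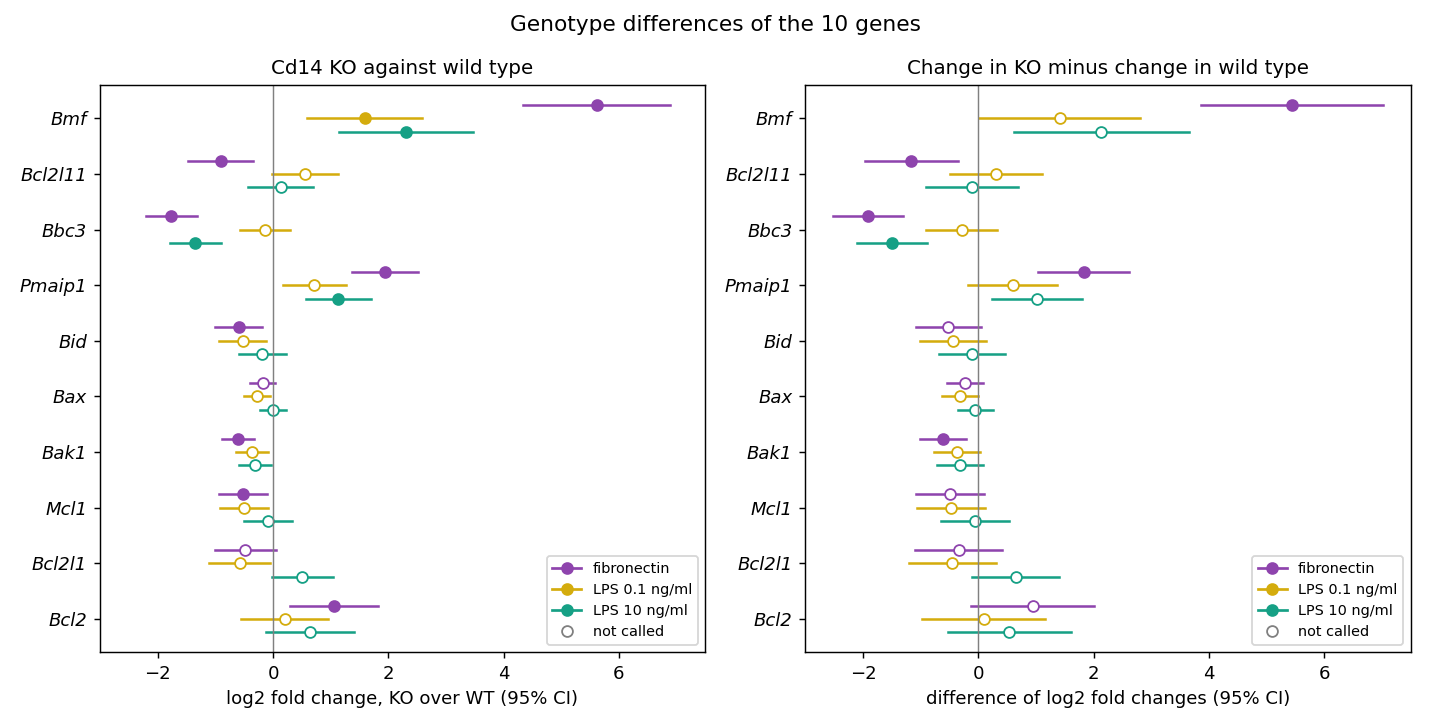
Log2 fold change of Cd14 KO over wild type for the 10 genes under each stimulus, and the log2 response of KO cells less that of wild type, as points with 95% confidence intervals, filled where called. Bmf (5.62) and Bbc3 (-1.77) under FN are the outermost differences between genotypes.

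FN and LPS 10 ng/ml were also compared directly. In WT cells edgeR called 0 of the 10 genes between them, against 0% of all tested genes and 0% with the block. No member had an unadjusted p below 0.05, against 105 of the 13294 tested genes, and DESeq2, limma and the block called 0 members. The widest 95% interval was that of Bmf, -1.86 to 0.75, and the narrowest that of Bax, -0.12 to 0.32. In KO cells 3 were called, against 17% of all genes, with 1 higher under FN (7.55%) and 2 lower (9.43%), and 8 with the block, against 44.8%. Over library totals there were 2 higher (24.7% of all genes) and 0 lower (5.32%), and Bcl2l11 (-0.66) and Bcl2l1 (-0.53) were not called. These were Bmf (2.76 ± 0.51, adjusted p = 0.000953), Bcl2l11 (-1.0 ± 0.27, adjusted p = 0.0163) and Bcl2l1 (-0.87 ± 0.26, adjusted p = 0.0241). Bcl2l11 lost its call in KO cells without KO FN replicate 1 (-0.88) or 2 (-0.86) or KO LPS 10 ng/ml replicate 3 (-0.76). Bcl2l1 lost its call in KO cells without KO FN replicate 2 (-0.78) or 3 (-0.88) or KO LPS 10 ng/ml replicate 1 (-0.86) or 3 (-0.83), and Bid was called without KO FN replicate 3 (-0.64).

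Between the LPS doses, 10 over 0.1 ng/ml, KO cells had 8 of the 10 called, against 36.7% of all genes, with 6 higher (18.3%) and 2 lower (18.5%), and the block called 9, against 62.8%. The KO split was 1 higher (9.61% of all genes) and 4 lower (37.2%) over library totals and 2 higher (13.4% of all genes) and 2 lower (24.3%) by upper quartile factors. WT cells had 5 called, against 32.2%, with 3 higher (14.8%) and 2 lower (17.4%), and the block called 8, against 57%. The WT split was 0 higher (6.32% of all genes) and 5 lower (46%) over library totals and 2 higher (11.8% of all genes) and 3 lower (20%) by upper quartile factors. Bcl2l1 rose by 1.65 ± 0.26 in KO cells (adjusted p = 6.57e-05) and was at 0.55 ± 0.25 in WT cells (adjusted p = 0.111). The difference between these dose steps was not tested. Among the KO calls, Bid (0.65) was lost without KO LPS 0.1 ng/ml replicate 2 (0.50) or KO LPS 10 ng/ml replicate 3 (0.43). Bax (0.32, -0.10 over library totals) was lost without KO LPS 0.1 ng/ml replicate 2 (0.29) or 3 (0.23) or KO LPS 10 ng/ml replicate 1 (0.28) or 3 (0.29). Bak1 (0.47) was lost without KO LPS 0.1 ng/ml replicate 3 (0.37). In WT cells the Bak1 step (0.42, -0.14 over library totals) was lost without WT LPS 0.1 ng/ml replicate 1 (0.42) or 3 (0.37) or WT LPS 10 ng/ml replicate 1 (0.33) or 2 (0.41), and Bcl2 (-0.92) was called without WT LPS 10 ng/ml replicate 2 (-1.19).

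Ratios of read counts within a library do not depend on how libraries are scaled. Bcl2l1 over Bcl2, as a log2 ratio with 0.5 added to each count, was 4.20 ± 0.35 under LPS 10 ng/ml in KO cells, against 2.12 ± 0.40 untreated (SD, n = 3 each). In WT cells it was 4.33 ± 0.41 under LPS 10 ng/ml, against 2.29 ± 0.16 untreated. Under FN it was 2.84 ± 0.10 in KO and 4.40 ± 0.33 in WT cells. Pmaip1 over Mcl1, the gene of a BH3-only protein over that of its chief partner, was -4.62 ± 0.39 under FN in KO cells, against -3.58 ± 0.22 untreated. In WT cells it was -7.09 ± 0.45 under FN, against -3.78 ± 0.49 untreated. Bax over Bak1 was 0.44 ± 0.04 under LPS 10 ng/ml in KO cells, against 0.68 ± 0.13 untreated, and 0.13 ± 0.10 in WT cells, against 0.63 ± 0.09 untreated. Of 36 comparisons of a stimulus with untreated cells over 6 such ratios, 23 had no overlap between libraries. Each of these had an exact two-sided permutation p of 0.1, the smallest that 3 against 3 allows, and the smallest adjusted p was 0.1565, so none can pass a threshold of 0.05. The 36 comparisons share genes and untreated libraries, and the share without overlap among other pairs of genes was not computed. A ratio shows unequal change of its 2 genes only.

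**Figure D5:**
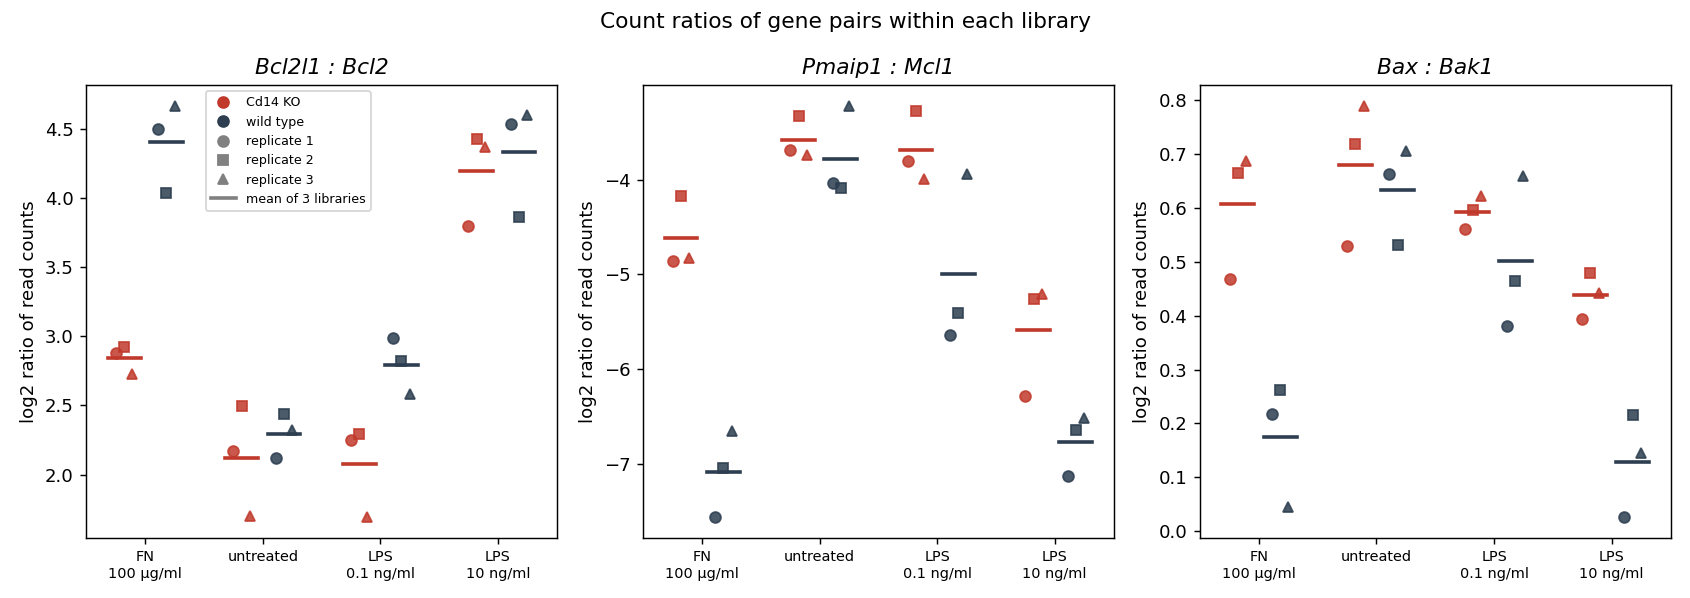
Log2 ratios of read counts of pairs of family genes in each of the 24 libraries, under FN, untreated, LPS 0.1 ng/ml and LPS 10 ng/ml, with Cd14 KO left of wild type and a bar at the mean of 3 libraries. For Bcl2l1 over Bcl2 under FN the mean is 2.84 in KO and 4.40 in WT cells.

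Genes that act beside the family in cell death were described by lists, in WT cells under LPS 10 ng/ml first, where 23.3% of all tested genes rose and 26.1% fell, or 34.1% and 36.1% with the block. Of 6 tested other pro-death relatives, 1 rose, Bik (1.16 ± 0.27, but 0.36 and not called over library totals), and 1 fell, the mitophagy receptor Bnip3l (-0.72 ± 0.24), with a list median of 0.07 against -0.01 over all genes, and the block called 1 higher and 2 lower. Among 5 tested other pro-survival relatives, 1 rose, Bcl2a1b (3.84 ± 0.70, adjusted p = 0.000138), with a median of 4.68. With the block all 5 rose, among them Bcl2a1a (5.54, adjusted p = 5.45e-07) and Bcl2a1d (5.09, adjusted p = 3.51e-08). Bcl2a1a, Bcl2a1b and Bcl2a1d are near-identical copies between which reads could be split, so their values are uncertain. In untreated cells Bcl2a1a had 982 reads in KO and 989 reads in WT replicate 1, against 3 to 7 reads in KO and 3 to 9 reads in WT replicates 2 and 3. Of 6 caspase inhibitors 4 rose, including Cflar (4.49 ± 0.37), which blocks caspase-8, Birc3 (3.78 ± 0.30) and Birc2 (2.24 ± 0.24), with a median of 1.67, and the block called 4 higher and 1 lower.

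Of 12 genes of caspases and the apoptosome 3 rose and 5 fell, with a median of -0.23, against the 23.3% that rose and 26.1% that fell of all genes. The block called 4 higher and 6 lower of the 12. Casp9, the initiator caspase of the mitochondrial pathway, was at 11.3 ± 1.8 CPM under LPS 10 ng/ml, against 66.3 ± 2.58 CPM untreated (SD, n = 3 each), a log2 change of -2.56 ± 0.14. Casp2 was at -1.14 ± 0.24, also called. Of 7 genes of death receptors and adaptors 4 rose, including Tnfsf10 (7.12 ± 0.85) and Fas (5.64 ± 0.47), with a median of 0.87, and the block called 5 higher and 1 lower. Of 7 genes of necroptosis and pyroptosis 6 rose, including Zbp1 (5.31 ± 0.63), Nlrp3 (4.89 ± 0.31) and Mlkl (4.82 ± 0.51), with a median of 4.13, and the block called all 7 higher. Of 8 partners of Bcl2 family proteins 2 rose, a share near the 23.3% of all genes, the deubiquitinase Usp9x (0.95 ± 0.26, but 0.16 and not called over library totals) and the ligase Huwe1 (0.54 ± 0.09, but -0.26 over library totals), both known to act on Mcl-1. Dynll2, the anchor of Bmf, fell (-0.58 ± 0.22), the median was 0.38, and the block called 5 higher and 1 lower.

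Of 8 tested transcription factor genes linked to the family, 2 rose and 4 fell in WT cells under LPS 10 ng/ml, with a median of -0.88, against 23.3% and 26.1% of all genes, and the block called 2 higher and 5 lower. The called ones included Foxo3 (-3.82 ± 0.29), Foxo1 (-1.81 ± 0.19), Trp53 (1.45 ± 0.29, 0.64 over library totals) and Mdm2 (1.42 ± 0.13, 0.62 over library totals), the negative regulator of p53. Under FN, Foxo3 averaged 11.1 ± 0.807 CPM in KO cells and 2.17 ± 0.19 CPM in WT cells, against 40.0 ± 7.61 CPM in untreated KO and 36.6 ± 3.3 CPM in untreated WT cells. In KO cells under FN, Foxo3 fell (-1.85 ± 0.26), and Cflar (2.20 ± 0.34), Fas (4.22 ± 0.44) and Nlrp3 (4.39 ± 0.30) rose. The interaction for FN was 2.22 ± 0.37 for Foxo3 (adjusted p = 0.000221), 1.42 ± 0.26 for Foxo1 (adjusted p = 0.000457) and -1.09 ± 0.19 for Mdm2 (adjusted p = 0.000282, -0.44 over library totals). Among the genes named from the other lists it was also called for Casp9 (1.85 ± 0.19), Cflar (-2.28 ± 0.46), Birc2 (-1.38 ± 0.33, but -0.71 and not called over library totals), Tnfsf10 (-6.16 ± 1.08), Tnfrsf1a (-1.15 ± 0.21), Zbp1 (-5.37 ± 0.80) and Mlkl (-4.35 ± 0.66). For Trp53 it was -0.59 ± 0.41 (adjusted p = 0.371, and adjusted p = 0.000183 with the block), and over library totals it was 0.07.

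The genes whose pattern over the 24 libraries was most like that of Bmf, by Pearson's r of log2 CPM among 9582 genes, were Cdan1 (0.988), Ip6k1 (0.987), Ddx26b (0.985), Dnajc28 (0.984) and Zfp740 (0.984). For Bbc3 the nearest were Mlxip (0.927) and Armcx6 (0.926), and for Mcl1 they were Plekho2 (0.968) and Adam17 (0.958). Bcl2l11 had weaker matches, the nearest being Rftn1 (0.834) and Poglut1 (0.833). The libraries fall into 8 groups, so these values mainly describe the order of the groups.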

How the data were processed

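The authors sequenced TruSeq libraries on a HiSeq2000, per the labels' protocols. Per the submitters' processing notes, the tools included Bowtie2 2.1.0, HTSeq 0.5.4 and DESeq, with mm10. Annotation and strand setting are not given in the sources used here. The authors deposited read counts for 18919 genes and, for 12889, a normalized signal that matched counts divided by 1 factor per library.

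Counts were fitted in edgeR 4.0.16 (R 4.3.3) with TMM scaling, filterByExpr (minimum count 10, minimum total 15) and 8 groups over 24 libraries (16 residual degrees of freedom, prior count 0.125). P-values of 17 contrasts were adjusted within each over 13294 genes. Members and lists were chosen with earlier results of these data known. All members were named, and from each list at most 3 called genes of greatest change and 2 highly expressed uncalled genes were eligible. Deviations from group means of same-numbered libraries correlated at 0.642 to 0.967 within a genotype (36 pairs) and 0.209 to 0.878 between genotypes at the same treatment (12 pairs), all above 0.1, so numbers were taken to pair libraries. Differently numbered libraries ranged from -0.785 to 0.391 within a genotype and, overlapping the same-numbered ones, from -0.793 to 0.752 between genotypes at the same treatment. The pairing comes from the data. The block was nested in genotype for stimuli and interactions and spanned all libraries for KO against WT. Positions came from GENCODE M21 and promoters from RefSeq (GRCm38.p6). DESeq2 1.42.0, limma 3.58.1 on log2 of the deposited signal plus 1, other scalings and filters, and omission of libraries were alternatives. Intervals cover the spread between libraries. Some genes counted in the lists are not reported here.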

Additional observations from a re-analysis of the deposited data

Results flagged for a closer look

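The response to a stimulus was called different between KO and WT cells in 6 cases, by edgeR's interaction test with Benjamini-Hochberg adjustment. Of all tested genes, 23.1% were called so for FN and 5.28% for LPS 10 ng/ml. Over library totals the FN calls of Bcl2l11 and Bak1 were lost, and leaving out any of several single libraries also lost them, as given above. For FN the log2 response of KO cells less the log2 response of WT cells was 5.45 for Bmf, 1.83 for Pmaip1, -1.92 for Bbc3, -1.16 for Bcl2l11 and -0.61 for Bak1. For LPS 10 ng/ml it was -1.50 for Bbc3. With replicates 2 and 3 of each group alone, a choice made after seeing the data, the FN values were 5.43 for Bmf (adjusted p = 0.00645), 1.81 for Pmaip1 (adjusted p = 0.0332), -1.75 for Bbc3 (adjusted p = 0.00882), -1.06 for Bcl2l11 (adjusted p = 0.21) and -0.54 for Bak1 (adjusted p = 0.14). The value for Bbc3 under LPS 10 ng/ml was then -1.51 (adjusted p = 0.0728).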

How the results depend on the processing

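Counts of called members were recomputed under other scalings, filters, tests, blocks and sets of libraries. The share called of all genes moved too, so a changed count is not particular to the members. With the block nested in genotype it went from 16.4% to 44% for KO FN and from 15.6% to 41.5% for WT LPS 0.1 ng/ml. For the interactions of LPS 0.1, LPS 10 ng/ml and FN it went from 2.29%, 5.28% and 23.1% to 13.4%, 21.7% and 49.3%. Shares under most other settings are not reported here. Over library totals the values that were called in either fit and turned their sign were, for LPS 10 ng/ml against untreated, Bak1 -0.01 in KO and Bid -0.12 and Bax -0.50 in WT cells; for FN against untreated in WT cells, Bid -0.14 and Bax -0.39; for KO over WT under FN, Bid 0.06, Bax 0.48, Bak1 0.05 and Mcl1 0.14, with the FN interaction of Bak1 at 0.03; and for 10 over 0.1 ng/ml, Bax -0.10 in KO and Bax -0.52, Bak1 -0.14 and Mcl1 -0.43 in WT cells. The called members numbered, over library totals, 5 in place of 9 for WT LPS 10 ng/ml, 5 in place of 9 for WT FN, 1 in place of 0 for KO LPS 0.1 ng/ml, 0 in place of 1, 5 in place of 3 and 5 in place of 8 for KO over WT under LPS 0.1, LPS 10 ng/ml and FN, and 5 in place of 8 for the KO dose step. Upper quartile factors gave 1 for KO LPS 0.1 ng/ml, 0 for KO over WT at that dose, 3 in place of 5 for the FN interaction and 4 for the KO dose step. The replicate block over all libraries gave 4 in place of 2 for WT LPS 0.1 ng/ml, 1 for KO LPS 0.1 ng/ml and 6 for KO over WT at that dose. Nested in genotype, the replicate block gave 2 for KO and 7 for WT LPS 0.1 ng/ml, 6 in place of 3 for KO FN, 3 in place of 0, 4 in place of 1 and 8 in place of 5 for the interactions of LPS 0.1, LPS 10 ng/ml and FN, 8 in place of 5 for the WT dose step and 8 in place of 3 for KO FN over LPS 10 ng/ml; it called 33 more member values and lost none of 130. Fitting only the groups compared gave 1 for WT LPS 0.1 ng/ml, 1 for KO FN, 0 for KO over WT at 0.1 ng/ml and 4 for the KO dose step. DESeq2 gave 1, 3 and 2 for KO LPS 0.1 ng/ml, KO over WT at that dose and the LPS 10 ng/ml interaction, and for KO over WT at 0.1 ng/ml limma gave 2 and no filter 0; a minimum of 5 CPM gave 1 for KO LPS 0.1 ng/ml. Without the 3 libraries richest in Rn45s the counts were 2 for KO over WT at 0.1 ng/ml, 1 and 2 for the interactions of LPS 0.1 and 10 ng/ml, 4 for the KO and 3 for the WT dose step. With replicates 2 and 3 alone, chosen after seeing the data, they were 1 for WT LPS 0.1 ng/ml, 1 for KO FN, 0 and 4 for KO over WT at 0.1 ng/ml and under FN, 0 and 3 for the interactions of LPS 10 ng/ml and FN, 4 for the KO dose step and 1 for KO FN over LPS 10 ng/ml. Leaving out 1 library gave 0 for KO LPS 0.1 ng/ml, 4 to 6 for KO LPS 10 ng/ml and 1 to 3 for KO FN; 1 to 3, 7 to 9 and 8 to 9 for the same stimuli in WT cells; 0, 0 to 3, 3 and 5 to 7 for KO over WT untreated, under LPS 0.1, LPS 10 ng/ml and FN; 0 to 2, 1 to 2 and 3 to 5 for the interactions of LPS 0.1, LPS 10 ng/ml and FN; 4 to 8 in KO and 4 to 5 in WT cells for the dose step; and 1 to 3 in KO and 0 in WT cells for FN over LPS 10 ng/ml. The cause of these changes was not tested, except that smaller fits hold fewer libraries. Of 170 member values, 167 kept direction and call with RLE factors, 163 with DESeq2 and 169 with limma. Fewer did so by upper quartile factors (154), with replicates 2 and 3 alone (144) and over library totals (127, with 14 turned in sign). The deposited signal given to limma was close to the TMM-scaled CPM of each member, so limma did not vary the scaling. With 3 libraries a group, the 95% interval of Bmf between untreated KO and WT cells ran from -0.81 to 1.15.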

Other observations

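The 8 libraries with replicate number 1 stood apart from the other 16 in genes outside the family. In every library of replicate 1, 94 of the 18919 genes had at least 10 times the CPM of every other library and at least 5 CPM, and 0 genes were lower in the same way. No gene met this rule for replicate 2 or for replicate 3. Among the 94 were Gapdh, at 39.0 to 56.7 CPM in replicate 1 and 0.71 to 3.33 CPM elsewhere, and Ppia, at 129 to 185 CPM in replicate 1 and 0.225 to 1.71 CPM elsewhere. Both genes are known for many processed pseudogenes. None of the 10 Bcl2 family genes was among the 94. The cause was not tested.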
